A study of Mus musculus with 9 samples.

Results

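Whole hearts from 1-day-old mice of 2 kinds of Cd36 knockout were compared: those labelled as whole-body knockouts (CD36KO) and those labelled as cardiac knockouts (CD36CKO). The comparison used 6 of the 9 libraries of the series, 3 per group, and the 12175 of 56748 listed genes whose mean level over these 6 libraries was at least 1 FPKM (fragments per kilobase of transcript, scaled to the library's read total). All were whole-heart RNA, and the series text describes the second group as a cardiomyocyte-specific knockout. Neither the labels nor the series text give the strain, litter, sex, Cre driver or deleted exons. Whether the libraries stand for different animals is not said, so p-values rest on a spread between libraries that may be technical. Levels in the 3 wild-type (WT) libraries are printed beside some results as values only. They entered no test.

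Cd36 is a membrane glycoprotein that carries long-chain fatty acids into cells, and in the heart it is made by cardiomyocytes, capillary endothelium and other cells. A whole-body deletion removes it from all of these, whereas a cardiomyocyte-specific deletion leaves it in the others. At birth mouse cardiomyocytes still divide, and over the following days they leave the cell cycle, turn from carbohydrate to fatty acid oxidation and exchange the slow myosin heavy chain Myh7 for the adult form Myh6.

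The targeted gene was examined first. Cd36 (ENSMUSG00000002944, chr5:17986688-18093799 on the minus strand in the deposited table, whose genome build is not stated) was at 72.4, 64.02 and 60.6 FPKM in CD36KO and 201, 183 and 163 FPKM in the libraries labelled CD36CKO. The means were 65.7 ± 6.05 FPKM and 183 ± 18.8 FPKM (SD, n = 3 each), so the CD36KO libraries were lower and the groups did not overlap (log2 difference -1.46, SE 0.11, adjusted p = 0.00537, limma). WT libraries held 163, 149.6 and 125 FPKM. The lowest of the libraries labelled CD36CKO was level with the highest WT library, so no loss of Cd36 RNA was seen there. The CD36KO libraries lay below all WT libraries but still held 60.6 to 72.4 FPKM. A whole-gene value in whole heart cannot show the loss of a single exon or which cells the RNA came from. It therefore settles neither label. Because its Cd36 level did not go with its label, the second group is called the libraries labelled CD36CKO throughout. The call for Cd36 was made in each of the 21 alternative settings tried.

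For each gene below, values are given in the order of replicates 1 to 3. Read depth ranged from 14408631 to 20725356 reads per library. On the log scale the libraries correlated at 0.984 to 0.986 within CD36KO, 0.971 to 0.983 within the libraries labelled CD36CKO and 0.957 to 0.973 between the groups. The first principal component held 46.2% of the variance and separated the groups. The second held 22.0% and set the library labelled CD36CKO 3 (score -24.0) apart from CD36CKO 1 and 2 (15.0 and 14.2). That library carried skeletal muscle transcripts: 23 skeletal muscle genes summed to 1842 FPKM in it and to between 11.7 and 20.1 FPKM in the other 5, not counting 6 genes of the list that heart also expresses. The Y-linked gene Ddx3y was expressed in CD36KO 3 (9.72 FPKM) and CD36CKO 3 (6.19 FPKM), and at most at 0.0820 FPKM in the other 4. Atrial chamber genes summed to between 361 and 1635 FPKM in CD36KO and between 867 and 2413 FPKM in the libraries labelled CD36CKO, so they varied widely within both groups. Cardiomyocyte genes were abundant everywhere: Myl2 ranged from 2736 to 5211 FPKM and Myh6 from 2035.1 to 2349 FPKM. In whole-heart RNA, fewer cells of a type and less RNA per cell cannot be told apart.

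Of the 12175 genes, 1345 (11.0%) differed between the groups at an adjusted p under 0.05 (limma on log2(FPKM + 1)). Of these, 763 (6.27% of the genes tested) were higher in CD36KO and 582 (4.78%) were higher in the libraries labelled CD36CKO, while the median log2 difference over all tested genes was 0.00. At an unadjusted p under 0.05 the count was 3724. The libraries of the 2 groups did not overlap in FPKM for 4451 of the 12175 genes, so a lack of overlap was common. Among the called genes, 104 were higher in CD36KO by a log2 difference of 1 or more, and 61 were higher in the libraries labelled CD36CKO by that much. The direction split depended on the scaling: 395 were higher in CD36KO and 1243 higher in the libraries labelled CD36CKO when every library was scaled to the same FPKM sum, 456 and 1051 when mitochondrially encoded and haemoglobin genes were removed first, and 716 and 1142 (1858 in all) with voom on the recovered reads. The same-sum scaling moved the median of all genes to -0.14 and the removal to -0.11. Leaving out libraries moved these counts. The number of calls fell to 474, 320 and 264 without CD36KO 1, 2 and 3 in turn, to 230 without CD36CKO 2 and to 307 without the Y-expressing library of each group, and it was 999 without CD36CKO 3 and 1431 without CD36CKO 1.

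No source says whether reads were counted by strand, so genes that overlap on opposite strands share an uncertain value. Among the genes described below this concerns Kif4 with Pdzd11, Prc1 with Rccd1, Pclaf with Trip4, Cdk4 with Tspan31, Mrpl14 with Tmem63b, Myl2 with Ccdc63, Myl3 with Pth1r, Pln with Cep85l, Cebpd with Spidr, Sult1a1 with Sgf29, Plin4 with Hdgfl2 and Shmt2 with Ndufa4l2.

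**Figure D1:**
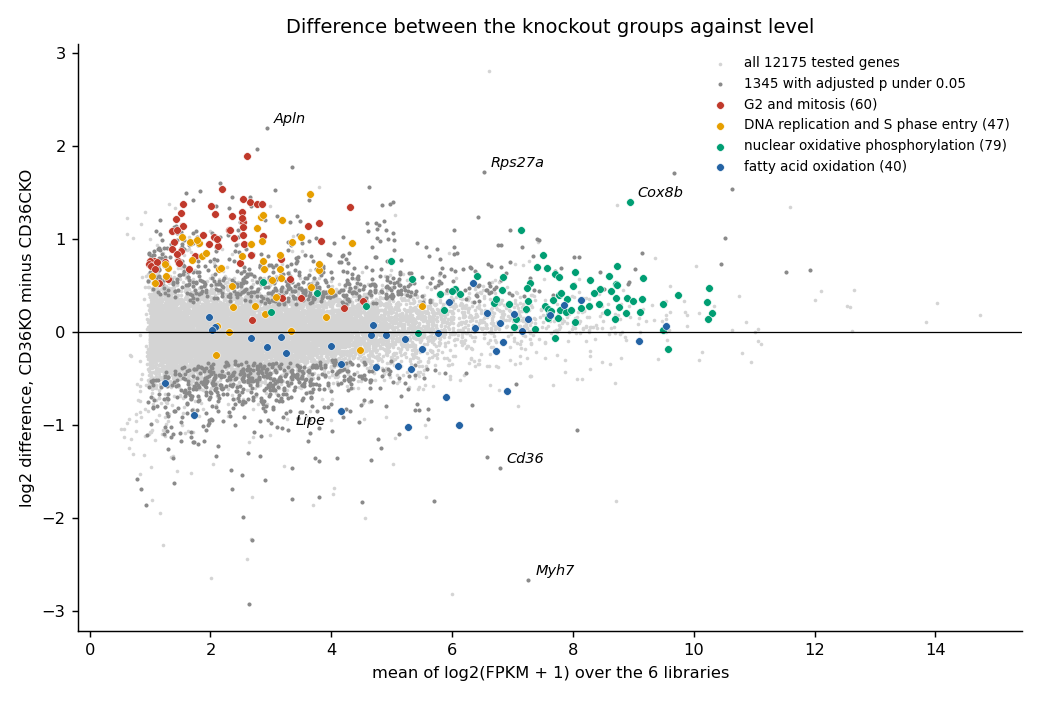
Mean of log2(FPKM + 1) over the 6 libraries (horizontal) against the log2 difference, CD36KO minus the libraries labelled CD36CKO (vertical), for the 12175 tested genes; darker grey points are the 1345 with an adjusted p under 0.05, and colours mark members of 4 gene lists. The 60 G2 and mitosis genes all lie above 0, while Cd36, Lipe and Myh7 lie well below it.

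Genes of G2 and mitosis had the largest share of calls among the lists in the plot of list shares. These genes build the spindle, condense and separate the chromosomes and drive the passage through division. Of 70 listed genes, 60 passed the level filter, and 53 of those 60 were higher in CD36KO with none higher in the libraries labelled CD36CKO, against 6.27% and 4.78% of all tested genes. The filter used the mean of both groups, so a low gene could pass through the group where it was high. All 60 had a log2 difference above 0, with a median of 1.00 against 0.00 over all tested genes, and those called ranged from 0.54 to 1.90.

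Spc25, a subunit of the Ndc80 kinetochore complex, was at 6.02, 7.16 and 7.28 FPKM in CD36KO and 1.59, 1.26 and 2.27 FPKM in the libraries labelled CD36CKO. The groups did not overlap, and every CD36KO library held more than 2 times the highest value of the other group (log2 difference 1.55, SE 0.15, adjusted p = 0.00641). Smc2, the core ATPase subunit of condensin, was at 4.09, 4.33 and 4.43 FPKM in CD36KO and 1.59, 1.36 and 1.74 FPKM in the libraries labelled CD36CKO. The replicates lay close together within each group (log2 difference 1.05, SE 0.09, adjusted p = 0.00641). Kif4, a chromosome-associated kinesin, was at 2.93, 3.55 and 3.97 FPKM in CD36KO and 0.686, 0.804 and 1.02 FPKM in the libraries labelled CD36CKO (log2 difference 1.28, SE 0.13, adjusted p = 0.00641). The midzone microtubule bundler Prc1 was at 3.05, 3.11 and 3.92 FPKM in CD36KO and 0.948, 0.923 and 1.05 FPKM in the libraries labelled CD36CKO, again without overlap (log2 difference 1.14, SE 0.11, adjusted p = 0.00641). Calls for these 4 genes were made in each of the 20 alternative settings that tested them, since the stricter level filter left them out. Kif4 and Prc1 had means below 1 FPKM in the libraries labelled CD36CKO, so both passed the level filter through CD36KO. That these 2 were higher in CD36KO is therefore tied to the filter, and the counts of the list include them.

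The proliferation antigen Mki67 was at 7.36, 9.08 and 11.6 FPKM in CD36KO and 2.70, 2.39 and 3.62 FPKM in the libraries labelled CD36CKO (log2 difference 1.40, SE 0.17, adjusted p = 0.00925). Top2a, the topoisomerase that untangles sister chromatids, was at 7.07, 8.97 and 9.59 FPKM in CD36KO and 2.57, 1.71 and 3.504 FPKM in the libraries labelled CD36CKO, and the mitotic kinase Pbk was at 9.31, 11.2 and 11.98 FPKM in CD36KO and 2.22, 1.19 and 3.47 FPKM in the libraries labelled CD36CKO. Neither overlapped between groups, with log2 differences of 1.43 (SE 0.19, adjusted p = 0.01) and 1.90 (SE 0.24, adjusted p = 0.00947). The cohesion protector Cdca5, which is in no list, was at 3.66, 4.52 and 4.94 FPKM in CD36KO and 0.932, 0.521 and 1.71 FPKM in the libraries labelled CD36CKO (log2 difference 1.42, SE 0.21, adjusted p = 0.0127). The 7 listed genes that did not pass were Bub3, Smc4, Ube2s, Troap, Pttg1, Ncapd2 and Cdc25b, with log2 differences from 0.13 to 0.57. They and Mki67 are named here after their values were seen.

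Mitosis transcripts together reached 389, 416 and 504 in CD36KO and 190.4, 172 and 238 in those labelled CD36CKO, in FPKM. CD36KO 3 was highest in its group and CD36CKO 3 in the other, the 2 libraries with Y-linked expression, yet the groups stayed apart. An exact two-sided permutation test over the 6 libraries gave p = 0.1, the smallest that 3 against 3 allows. WT libraries summed to 614, 743 and 930.2 FPKM, and for 48 of the 53 called genes the WT mean lay above both knockout means. The count of 53 fell to 33, 27 and 25 without CD36KO 2, CD36KO 3 and CD36CKO 2, and to 27 with the mean atrial log2 level as a covariate. It was 53 without CD36CKO 3, the library with skeletal muscle transcripts, and between 51 and 55 under the 5 other scalings and normalizations. The count was 7 with no filter on low values, where more genes were tested. With a mean of at least 5 FPKM, which left out low members, it was 20. Summed endothelial markers (841, 800.1 and 925 in CD36KO and 759.7, 809 and 805 in those labelled CD36CKO, in FPKM) and macrophage markers (103, 115 and 105 in CD36KO and 98.04, 87.5 and 105 in those labelled CD36CKO, in FPKM) overlapped between the groups. The mean log2 level of the 25 endothelial markers did not overlap: it ran from 4.40 to 4.55 in CD36KO and from 4.27 to 4.39 in the other group. Of these markers 21 had a log2 difference above 0, so they moved with the mitosis genes. Their part in the result was not tested.

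DNA replication and S phase entry genes followed. These genes license origins, make nucleotides and copy DNA. Of 53 listed genes 47 were tested, and 32 (68.1%) were higher in CD36KO with none in the other direction, against 6.27% and 4.78% of all tested genes. The median log2 difference was 0.69. Those called ranged from 0.44 to 1.49. Mcm2, Mcm3 and Mcm6 are subunits of the replicative helicase. Mcm2 was at 7.62, 7.27 and 8.76 FPKM in CD36KO and 3.65, 3.06 and 4.12 FPKM in the libraries labelled CD36CKO, a separation of both groups (log2 difference 0.95, SE 0.11, adjusted p = 0.0088). Mcm3 was at 12.4, 13.7 and 13.8 FPKM in CD36KO and 5.89, 5.41 and 7.81 FPKM in the libraries labelled CD36CKO (log2 difference 0.97, SE 0.13, adjusted p = 0.00995). Mcm6 was at 12.7, 16.3 and 16.5 FPKM in CD36KO and 6.31, 6.25 and 8.29 FPKM in the libraries labelled CD36CKO, and as for the other 2 helicase genes the highest level among the libraries labelled CD36CKO was that of replicate 3 (log2 difference 1.02, SE 0.14, adjusted p = 0.0103).

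The single-stranded DNA binding subunit Rpa1 was at 16.2, 17.2 and 16.5 FPKM in CD36KO and 10.01, 10.7 and 9.52 FPKM in the libraries labelled CD36CKO, with little spread in either group (log2 difference 0.67, SE 0.08, adjusted p = 0.0088). Rrm2, the inducible subunit of ribonucleotide reductase, was at 18.6, 20.7 and 21.2 FPKM in CD36KO and 5.75, 4.79 and 9.89 FPKM in the libraries labelled CD36CKO and had the largest difference of the list (log2 difference 1.49, SE 0.21, adjusted p = 0.012). Pclaf, which binds the replication clamp, is in no list and was at 5.49, 7.12 and 7.91 FPKM in CD36KO and 1.27, 1.13 and 2.44 FPKM in the libraries labelled CD36CKO (log2 difference 1.61, SE 0.20, adjusted p = 0.00927). These 6 genes kept their call without any 1 of the 6 libraries. Of the cell cycle entry genes in this list, the D-type cyclin Ccnd1 was at 18.4, 14.8 and 18.2 FPKM in CD36KO and 9.95, 9.18 and 10.3 FPKM in the libraries labelled CD36CKO and was called (log2 difference 0.74, SE 0.11, adjusted p = 0.0118). Its relatives Ccnd2 and Ccnd3 had log2 differences of 0.16 and -0.19 (adjusted p = 0.372 and 0.315), and their partner kinases Cdk4 and Cdk6 had 0.28 and 0.06 (adjusted p = 0.095 and 0.662). The cyclins and kinases of this list were singled out after their values were seen.

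WT stood differently beside these 2 lists. For only 3 of the 47 replication genes tested did the WT mean lie above both knockout means, against 54 of the 60 mitosis genes. In 31 of the 47 it lay between them, and in 13 below both. Mcm2 was at 3.65, 3.71 and 3.16 FPKM in WT, within the range of the libraries labelled CD36CKO, whereas Kif4 was at 4.64, 5.46 and 6.21 FPKM in WT, above all 6 libraries. These placements were not tested. The replication count of 32 fell to 13, 10 and 9 without CD36KO 2, CD36KO 3 and CD36CKO 2, to 20 without the Y-expressing libraries and to 12 with the atrial covariate, and it was 36 without CD36CKO 3. With no filter on low values it was 2, and with a mean of at least 5 FPKM it was 19.

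**Figure D2:**
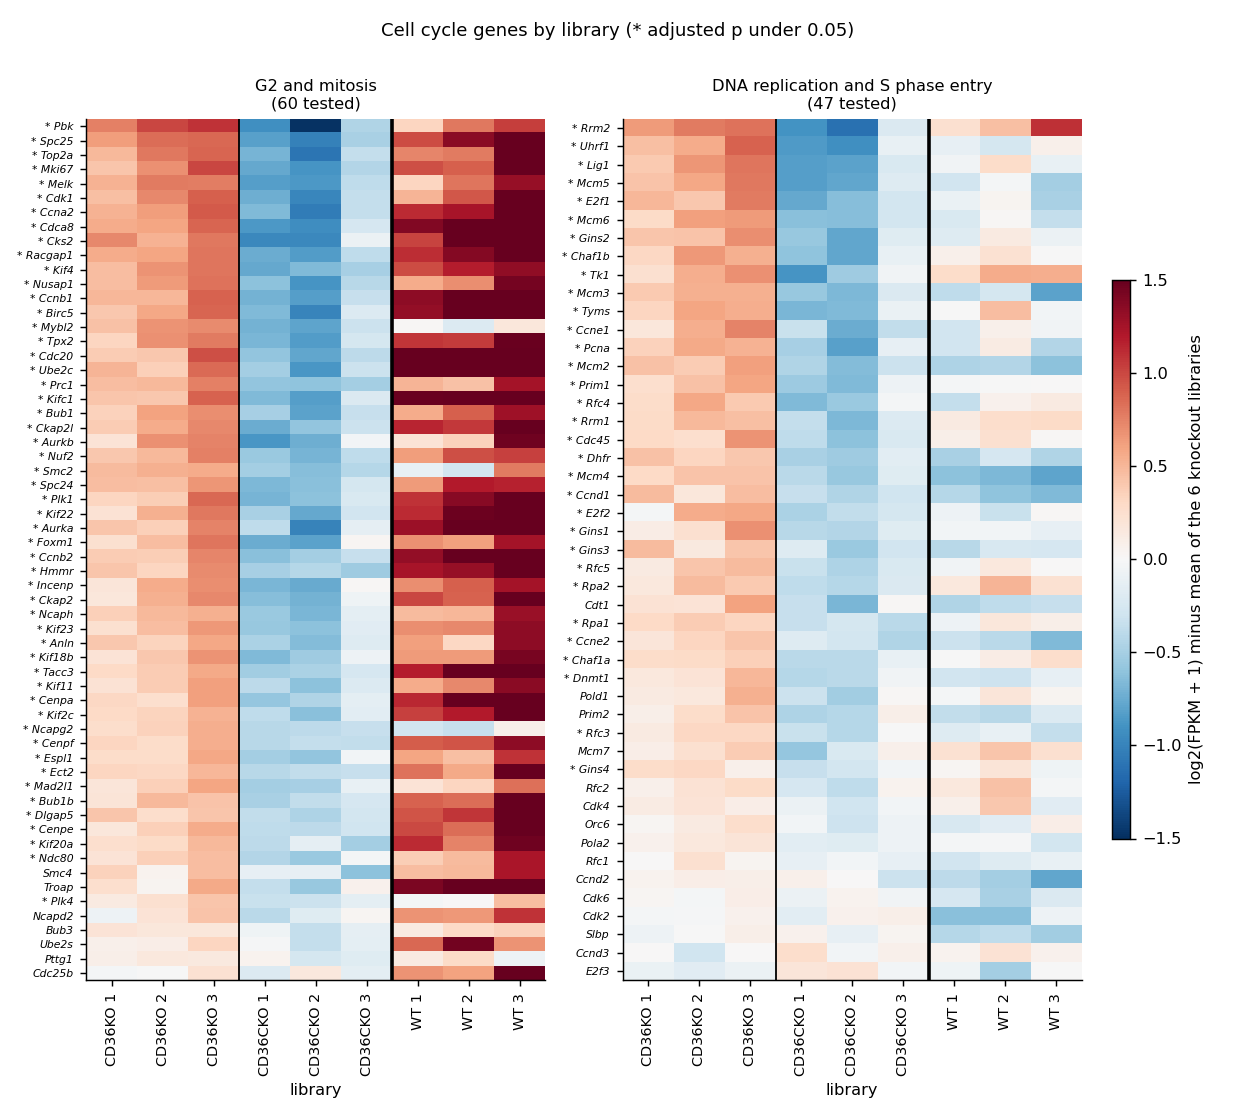
Each gene's log2(FPKM + 1) in every library, as the difference from its mean over the 6 knockout libraries (red above, blue below), for the 60 tested G2 and mitosis genes (left) and the 47 tested DNA replication genes (right); an asterisk marks an adjusted p under 0.05. CD36KO 3 and CD36CKO 3 are the highest of their groups for most mitosis genes, and WT is red for mitosis genes but near white or blue for many replication genes.

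Cell cycle promoters are known for a few short motifs, so sequence upstream of the members' starts was searched for them. The CHR element is bound by the DREAM and MuvB complexes at genes of G2 and mitosis, CCAAT boxes are bound by NF-Y, and E2F sites sit at genes of S phase. The window was the 150 bases before each RefSeq start (GRCm38.p6), searched on both strands (a match may read as its reverse complement), and a gene with several starts counted once. The letters TTTGAA or TTCGAA (CHR) stood in 17 of the 50 mitosis genes with a window (34.0%), against 11.2% of all 27025 genes and 7.39% of the 8860 tested genes matched. CCAAT stood in 35 of these 50 (70.0%), against 27.7% of all genes and 31.7% of tested genes. E2F letters (TTTCCCGC, TTTGGCGC, TTTCGCGC or TTTGCCGC) stood in 6 of the 37 replication genes matched (16.2%), against 1.44% of all genes and 2.70% of tested genes. CCAAT stood in 21 of these 37 replication genes as well (56.8%), CHR letters in 10.8% of them and E2F letters in 4% of the mitosis genes. For comparison, 65 oxidative phosphorylation genes matched, and CHR, CCAAT and E2F letters stood in 6.15%, 29.2% and 3.08% of them. A match is only a run of letters, and its absence says nothing of a factor.

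The windows below are those of the called genes with the smallest p in each list that hold the list's motif and overlap no annotated exon. Capitals mark CHR letters in Smc2 and Mki67 and E2F letters in Mcm6 and Mcm5, and some Mcm6 matches overlap.
Smc2, chr4:52439071-52439220, plus strand: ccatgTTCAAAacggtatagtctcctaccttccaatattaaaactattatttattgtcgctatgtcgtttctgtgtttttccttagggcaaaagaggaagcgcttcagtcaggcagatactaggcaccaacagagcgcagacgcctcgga
Mki67, chr7:135716380-135716529, minus strand: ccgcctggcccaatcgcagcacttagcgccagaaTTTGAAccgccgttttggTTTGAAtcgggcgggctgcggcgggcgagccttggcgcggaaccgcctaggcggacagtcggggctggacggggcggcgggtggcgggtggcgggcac
Mcm6, chr1:128359706-128359855, minus strand: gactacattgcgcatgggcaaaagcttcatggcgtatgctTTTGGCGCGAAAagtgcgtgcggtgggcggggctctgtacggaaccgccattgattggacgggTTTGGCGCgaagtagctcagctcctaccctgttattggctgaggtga
Mcm5, chr8:75109359-75109508, plus strand: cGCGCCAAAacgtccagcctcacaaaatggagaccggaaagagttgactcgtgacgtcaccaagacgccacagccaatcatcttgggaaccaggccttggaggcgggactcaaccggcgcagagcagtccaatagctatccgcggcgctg
The 2 CHR runs of Mki67 lie close together, downstream of a CCAAT box in lower case. Mcm6 holds 3 E2F matches and Mcm5 holds 1, and each window also holds 2 CCAAT matches. Mcm5, a further helicase subunit, was at 11.2, 12.6 and 14.6 FPKM in CD36KO and 4.12, 4.25 and 6.88 FPKM in the libraries labelled CD36CKO (log2 difference 1.20, SE 0.18, adjusted p = 0.0128).

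Genes that restrain the cell cycle did not move as a block. Of 29 tested CDK inhibitors and other brakes, 2 (6.90%) were higher in CD36KO and 4 (13.8%) were higher in the libraries labelled CD36CKO, at a median of -0.03. Over all tested genes these shares were 6.27% and 4.78%. The Ink4 inhibitor Cdkn2c was higher in CD36KO, at 12.9, 14.9 and 16.2 FPKM in CD36KO and 6.68, 5.48 and 7.75 FPKM in the libraries labelled CD36CKO (log2 difference 1.04, SE 0.13, adjusted p = 0.00947). Rbl1, the pocket protein p107, was also higher there (log2 difference 0.66, SE 0.14, adjusted p = 0.0303). Gadd45b, a growth arrest and stress gene, was at 6.34, 5.04 and 4.79 FPKM in CD36KO and 12.2, 10.01 and 13.97 FPKM in the libraries labelled CD36CKO and so was lower in CD36KO (log2 difference -1.03, SE 0.14, adjusted p = 0.0104). The antiproliferative gene Tob1 was lower in CD36KO too (log2 difference -0.46, SE 0.10, adjusted p = 0.0301), as were Btg1 and Cdkn1b, with log2 differences of -0.31 and -0.57. Calls for Cdkn2c and Gadd45b were made without any 1 library, whereas those for Rbl1 and Tob1 remained only without CD36CKO 3.

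Subunits of the respiratory chain encoded in the nucleus formed another large group of calls. Of 79 tested genes 33 (41.8%) were higher in CD36KO and none were higher in the libraries labelled CD36CKO, against 6.27% and 4.78% of all tested genes. The median log2 difference was 0.35, and the called genes ranged from 0.36 to 1.40. Cox8b and Cox7a1 are subunits of cytochrome c oxidase found in heart and skeletal muscle. Cox8b was at 1034, 753 and 657 FPKM in CD36KO and 287, 299.7 and 324 FPKM in the libraries labelled CD36CKO, and every CD36KO library held over 2 times the highest value of the other group (log2 difference 1.40, SE 0.17, adjusted p = 0.00884). Cox7a1 was at 272, 241 and 217 FPKM in CD36KO and 134, 131 and 141 FPKM in the libraries labelled CD36CKO (log2 difference 0.84, SE 0.11, adjusted p = 0.00947). Among complex I subunits, Ndufa1 was at 566, 568 and 491 FPKM in CD36KO and 321, 324 and 342 FPKM in the libraries labelled CD36CKO, with no overlap (log2 difference 0.72, SE 0.10, adjusted p = 0.0105). The log2 difference of Ndufs6, another complex I subunit, was 0.65 (SE 0.09, adjusted p = 0.012), but its reads and those of Mrpl36 on the opposite strand cannot be told apart without a stated strand setting.

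The summed list reached 28740.1, 27206 and 26965 in CD36KO and 23153, 19999 and 21672 in those labelled CD36CKO, in FPKM, and WT libraries held 30579, 37426 and 20687. The 33 calls became 16 under the same-sum scaling, 23 with quantile normalization, 16 without CD36CKO 3, 10 without CD36KO 1, 4 without CD36KO 2, 10 without CD36KO 3, 8 without CD36CKO 2, 4 without the Y-expressing libraries and 8 with the atrial covariate. The count was 1 with no filter on low values and 34 with a mean of at least 5 FPKM. The 4 named genes kept their calls without any 1 library.

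Gene length moved with this result. Among protein-coding genes of up to 1 kb in the deposited table the median log2 difference was 0.22, with 17.1% higher in CD36KO and 2.45% higher in the libraries labelled CD36CKO. It was 0.13 from 1 to 2 kb, 0.03 from 2 to 4 kb, -0.03 from 4 to 8 kb and -0.05 above 8 kb, where 2.54% and 4.18% were higher in the 2 directions. Genes of up to 1 kb took 3.28%, 3.56% and 3.32% of protein-coding reads in CD36KO 1 to 3 and 3.19%, 2.67% and 3.19% in the libraries labelled CD36CKO 1 to 3. Within the respiratory chain list 12 of 21 genes of up to 1 kb, 15 of 32 from 1 to 2 kb, 5 of 17 from 2 to 4 kb and 1 of 8 from 4 to 8 kb were called. Among mitosis genes 13 of 15 from 2 to 4 kb, 27 of 31 from 4 to 8 kb and 9 of 9 above 8 kb were called, and their median fell from 1.04 to 0.95 and 0.77 over these classes. Of the replication genes 3 of 3 from 1 to 2 kb, 13 of 16 from 2 to 4 kb, 14 of 22 from 4 to 8 kb and 2 of 6 above 8 kb were called, with a median of 0.22 in the last class. The part of gene length in these results was not tested.

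**Figure D3:**
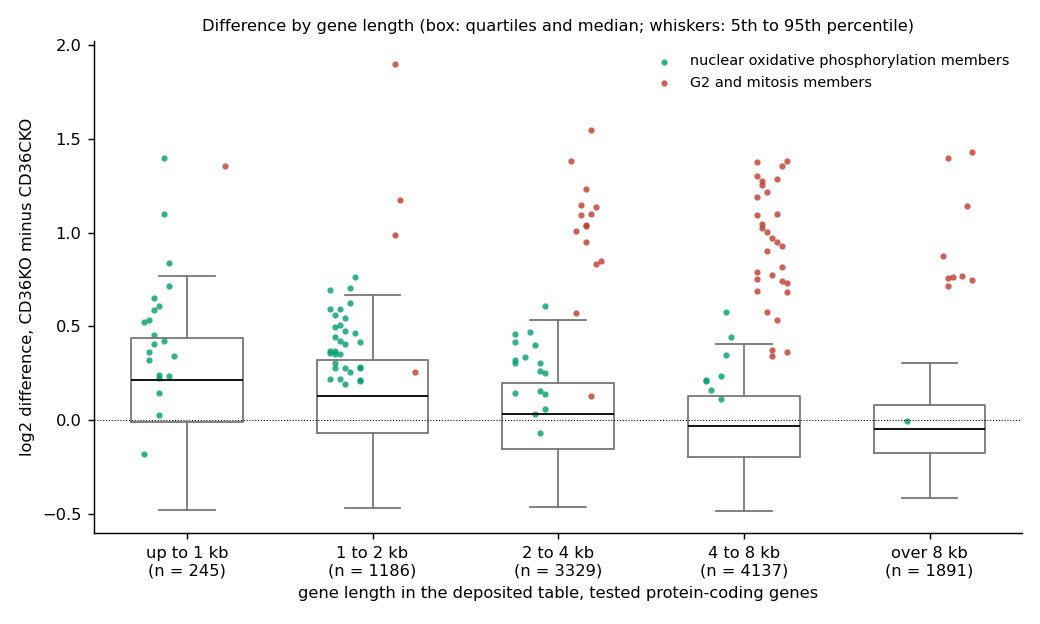
The log2 difference, CD36KO minus the libraries labelled CD36CKO, of tested protein-coding genes in 5 classes of gene length (boxes: quartiles and median, whiskers: 5th to 95th percentile), with respiratory chain members in green and mitosis members in red. The class medians go from 0.22 in the shortest genes to -0.05 in the longest, while mitosis members lie above 0 in every class.

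Other mitochondrial and ribosomal genes showed fewer calls. None of the 13 protein genes of the mitochondrial genome passed in the reported limma fit (median 0.28). At an unadjusted p under 0.05 the count was 2. It was 1 with voom, with protein-coding genes alone, with the stricter level filter and without CD36CKO 1. Mitochondrial transcripts took 11.9%, 11.1% and 14.3% of reads in CD36KO 1 to 3 and 10.3%, 10.3% and 12.2% in the libraries labelled CD36CKO 1 to 3, which overlap. The mean log2 level of the 13 genes did not overlap between the groups. It was 10.96 to 11.21 in CD36KO and 10.55 to 10.91 in the other group (exact two-sided permutation p = 0.1, the smallest possible). Of the 13 genes, 12 had a log2 difference above 0. Of 77 mitochondrial ribosomal protein genes 7 were higher in CD36KO, a share of 9.09%, among them Mrpl17 (0.44), Mrps21 (0.44), Mrpl14 (0.55, adjusted p = 0.0207) and Mrpl52 (0.51, adjusted p = 0.0296). Of 76 cytosolic ribosomal protein genes 6 were higher in CD36KO, a share of 7.89%. Both shares were near the 6.27% of all genes. The medians of both lists, 0.12 and 0.13, fell to -0.04 under the same-sum scaling. Rps27a, which encodes ubiquitin fused to a ribosomal protein, had the smallest p of all tested genes. It was at 159, 175 and 164 FPKM in CD36KO and 48.3, 50.4 and 49.99 FPKM in the libraries labelled CD36CKO (log2 difference 1.72, SE 0.08, adjusted p = 0.000614). In WT it was at 108, 289 and 64.5 FPKM, a wide range, and it shares reads with processed copies and overlaps Clhc1 on the opposite strand, so its value is uncertain. In the same list Rpl41, Rps12 and Rps21 had log2 differences of 0.68, 0.70 and 0.82 (adjusted p = 0.0136, 0.0163 and 0.0218).

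Lipid handling genes moved in both directions and most did not pass. In the fatty acid uptake and storage list 22 genes were tested. Of these, 1 was higher in CD36KO and 5 were higher in the libraries labelled CD36CKO, a share of 22.7% against 4.78% of all tested genes. The 5 include Cd36, the targeted gene. Beside Cd36 itself, Lipe, the hormone-sensitive lipase that releases fatty acids from stored fat, was at 5.73, 6.003 and 5.62 FPKM in CD36KO and 12.3, 13.8 and 13.2 FPKM in the libraries labelled CD36CKO. Each library labelled CD36CKO held more than 2 times the level of each CD36KO library, a call made in all 21 alternative settings (log2 difference -1.05, SE 0.08, adjusted p = 0.00537). Angptl4, a secreted inhibitor of lipoprotein lipase, was at 33.3, 17.7 and 19.9 FPKM in CD36KO and 54.8, 48.5 and 46.5 FPKM in the libraries labelled CD36CKO (log2 difference -1.10, SE 0.21, adjusted p = 0.0228). Its call was lost without CD36KO 2, CD36KO 3 or CD36CKO 2. The transporter Slc27a1 and the triglyceride lipase Pnpla2 were also lower in CD36KO, with log2 differences of -0.83 and -0.44 (adjusted p = 0.0432 and 0.0382). The opposite direction was shown by Gpihbp1, which holds lipoprotein lipase on capillary walls (log2 difference 0.52, SE 0.10, adjusted p = 0.022), a call that did not remain without CD36KO 1, 2 or 3 or CD36CKO 2. The count of 5 in this list fell to 3, 2, 2 and 2 without CD36KO 1, 2 and 3 and CD36CKO 2. The summed list was higher in each CD36KO library, at 5757 to 6299 FPKM against 4242 to 5290 FPKM in the other group. Its mean log2 level went the other way, at 5.14 to 5.17 in CD36KO against 5.29 to 5.35 (exact two-sided permutation p = 0.1 for both, the smallest possible). Fabp5, an intracellular fatty acid carrier that the study's text names, was at 40.02, 56.5 and 52.4 FPKM in CD36KO and 47.3, 36.3 and 38.8 FPKM in the libraries labelled CD36CKO and did not pass (log2 difference 0.27, SE 0.15, adjusted p = 0.272).

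In fatty acid oxidation, 5 of 40 genes were higher in the libraries labelled CD36CKO (12.5%, against 4.78% of all tested genes) and none in CD36KO, at a median of -0.06. The acyl-CoA thioesterase Acot1 was at 27.9, 28.9 and 22.3 FPKM in CD36KO and 61.8, 52.9 and 48.5 FPKM in the libraries labelled CD36CKO (log2 difference -1.02, SE 0.13, adjusted p = 0.00967), and its mitochondrial relative Acot2 was at 54.1, 47.3 and 43.3 FPKM in CD36KO and 108, 102 and 81.7 FPKM in the libraries labelled CD36CKO (log2 difference -0.99, SE 0.13, adjusted p = 0.0101). Both stayed called without any 1 library, though near-identical coding sequences in this family can share reads. The mitochondrial carrier Ucp3 was at 16.3, 11.7 and 9.94 FPKM in CD36KO and 18.4, 22.6 and 29.5 FPKM in the libraries labelled CD36CKO (log2 difference -0.85, SE 0.21, adjusted p = 0.0436), and Acad10 and Eci2 had log2 differences of -0.54 and -0.36 (adjusted p = 0.0469 and 0.0476). The call for Ucp3 was lost without CD36KO 2, CD36KO 3, CD36CKO 2 or CD36CKO 3, and that for Acad10 remained only without CD36CKO 1. The carnitine palmitoyltransferase Cpt1b and the pyruvate dehydrogenase kinase Pdk4, both known PPAR targets, had log2 differences of -0.89 and -0.69 that did not pass (adjusted p = 0.0795 and 0.089); they were singled out after their values were seen. Oxidation genes together reached 3848, 3967 and 3543 in CD36KO and 4049.8, 3621 and 3680.1 in those labelled CD36CKO, in FPKM, and the groups overlapped. Their mean log2 level, which abundant genes weigh on less, did not overlap: it ran from 5.15 to 5.31 in CD36KO and from 5.36 to 5.41 in the other group (exact two-sided permutation p = 0.1, the smallest possible). The count of 5 was 2, 2, 2 and 3 without CD36KO 2, CD36KO 3, CD36CKO 2 and CD36CKO 3, and 9 with voom.

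Few genes for nuclear receptors that sense fatty acids and retinoids passed the test, and the count depended on the scaling. Of 27 PPAR and RXR receptors and coregulators 1 passed, lower in CD36KO (3.70%, against 4.78% of all tested genes), at a list median of -0.15, with 22 below 0. The count was 6 under the same-sum scaling, 5 with voom and 4 with mitochondrially encoded and haemoglobin genes removed. Their summed level was lower in each CD36KO library, at 185 to 193 FPKM against 205 to 216 FPKM (exact two-sided permutation p = 0.1). The called gene was the receptor Pparg, at 2.05, 1.43 and 2.13 FPKM in CD36KO and 3.30, 3.52 and 2.92 FPKM in the libraries labelled CD36CKO (log2 difference -0.57, SE 0.12, adjusted p = 0.031), a call that remained only without CD36CKO 3. Ppard, which the study's text names, was at 3.16, 2.74 and 2.86 FPKM in CD36KO and 2.70, 4.18 and 3.31 FPKM in the libraries labelled CD36CKO and did not differ beyond the spread (log2 difference -0.15, SE 0.13, adjusted p = 0.469; 95% interval -0.46 to 0.15). Rxra was higher in CD36KO in 3 of 3 libraries, at 15.6, 13.6 and 13.8 FPKM in CD36KO and 11.2, 12.9 and 12.2 FPKM in the libraries labelled CD36CKO, but missed the threshold (log2 difference 0.22, SE 0.09, adjusted p = 0.151). Rxrb had a log2 difference of -0.14 (95% interval -0.38 to 0.10, adjusted p = 0.392), and Rxrg, low and variable at 1.66, 2.99 and 2.78 FPKM in CD36KO and 0.761, 0.743 and 2.94 FPKM in the libraries labelled CD36CKO, had 0.58 (95% interval -0.18 to 1.33, adjusted p = 0.269). Without CD36CKO 3, the library with skeletal muscle transcripts, Rxrg was called, at a log2 difference of 0.97 (adjusted p = 0.0313, limma), and without CD36CKO 2 or 1 it was at 0.38 and 0.39 and not called.

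Retinoid genes held calls in both directions: of 15 tested, 3 (20%) were higher in CD36KO and 4 (26.7%) in the libraries labelled CD36CKO, at a median of -0.05. Over all tested genes these shares were 6.27% and 4.78%. A further 11 retinoid genes were not tested. Aldh1a2, which makes retinoic acid in the epicardium and other mesenchyme, was at 15.9, 16.9 and 22.03 FPKM in CD36KO and 9.35, 6.74 and 9.56 FPKM in the libraries labelled CD36CKO, higher in CD36KO (log2 difference 1.01, SE 0.16, adjusted p = 0.0144), and in WT it was at 7.55, 6.20 and 5.20 FPKM. Dhrs4 was also higher in CD36KO (0.44). The receptor Rara was lower, at 9.52, 9.49 and 9.94 FPKM in CD36KO and 13.2, 12.3 and 14.3 FPKM in the libraries labelled CD36CKO (log2 difference -0.42, SE 0.08, adjusted p = 0.0234). Rarg, Rdh13 and Aldh1a1 were lower too, with log2 differences of -0.43, -0.54 and -0.52. Of these calls, that of Aldh1a2 was made without any 1 library, that of Rdh13 was lost without CD36KO 2, CD36KO 3 or CD36CKO 2, and that of Rara was lost also without CD36KO 1. The count of 4 became 1, 0 and 0 without CD36KO 1, 2 and 3 and 0 without CD36CKO 2, and the count of 3 became 1 without CD36KO 2, CD36KO 3 or CD36CKO 2.

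**Figure D4:**
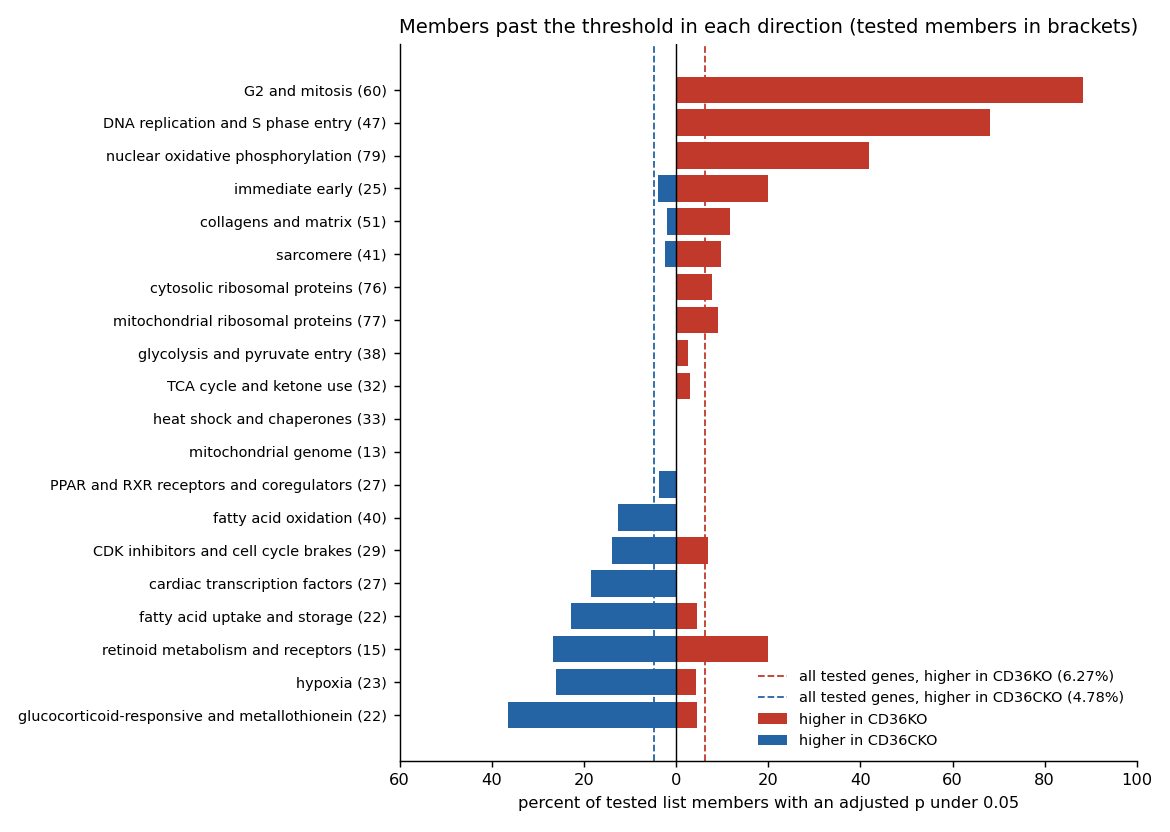
Percent of the tested members of 20 gene lists with an adjusted p under 0.05, higher in CD36KO to the right and higher in the libraries labelled CD36CKO to the left; dashed lines give the shares of all tested genes, 6.27% and 4.78%. Mitosis, DNA replication and respiratory chain genes extend far to the right with nothing to the left, and glucocorticoid-responsive, hypoxia and fatty acid uptake genes extend mostly to the left.

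Among contractile genes the slow myosin heavy chain Myh7 stood out. Myh7 (chr14:55208141-55232083 in the deposited table) was at 67.6, 56.3 and 56.6 FPKM in CD36KO and 479, 552 and 217 FPKM in the libraries labelled CD36CKO, and at 542, 429 and 543 FPKM in WT. All 3 CD36KO libraries lay far below both other groups (log2 difference -2.67, SE 0.32, adjusted p = 0.0088), and the call was made without any 1 library. The value includes reads that could come from Mhrt and 3 other genes annotated on the opposite strand. Its adult counterpart Myh6 was at 2198, 2035 and 2134 FPKM in CD36KO and 2349, 2284 and 2329 FPKM in the libraries labelled CD36CKO and did not pass (log2 difference -0.13, SE 0.10, adjusted p = 0.4). Both ventricular light chains, Myl2 and Myl3, were higher in CD36KO: Myl2 was at 5211, 4984 and 4607 FPKM in CD36KO and 3333, 2736 and 3223 FPKM in the libraries labelled CD36CKO (log2 difference 0.68, SE 0.12, adjusted p = 0.0197) and Myl3 at 3938, 3511 and 3673 FPKM in CD36KO and 2626, 2110.2 and 2386 FPKM in the libraries labelled CD36CKO (log2 difference 0.65, SE 0.12, adjusted p = 0.0208). These 2 calls were less firm, since that of Myl2 was lost without CD36KO 1, 2 or 3 and that of Myl3 remained only without CD36CKO 1. Both were lost with quantile normalization, where the log2 differences were 0.11 for Myl2 (adjusted p = 0.528) and 0.05 for Myl3 (adjusted p = 0.789), and with the atrial covariate. Cmya5, a further sarcomere gene, was higher in CD36KO (0.40). Over the 41 tested sarcomere genes, 4 (9.76%) were higher in CD36KO and 1 (2.44%) in the libraries labelled CD36CKO, at a median of 0.02. Over all tested genes these shares were 6.27% and 4.78%. The split of 4 and 1 turned under other scalings. It was 3 and 6 with the same FPKM sum, 3 and 7 with mitochondrially encoded and haemoglobin genes removed, 4 and 7 with voom and 2 and 5 with quantile normalization. The 4 became 0, 1 and 0 without CD36KO 1, 2 and 3, and 1 and 2 without CD36CKO 2 and 3, while the 1 became 3 without CD36CKO 1.

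Genes of the fetal programme were also split, with 2 of 18 in each direction (11.1% each, against 6.27% and 4.78% of all tested genes). The cytoplasmic actin Actb was at 359, 311 and 354 FPKM in CD36KO and 196, 172 and 216 FPKM in the libraries labelled CD36CKO, higher in CD36KO (log2 difference 0.81, SE 0.11, adjusted p = 0.0112). Sh3bgr, of striated muscle, was the other gene higher (0.69, adjusted p = 0.0161). The smooth muscle calponin Cnn1 was lower, at 4.75, 2.60 and 3.27 FPKM in CD36KO and 14.99, 9.85 and 7.06 FPKM in the libraries labelled CD36CKO (log2 difference -1.33, SE 0.26, adjusted p = 0.0234). Its call was lost without CD36KO 2, CD36KO 3 or CD36CKO 2. The natriuretic peptide Nppa, an atrial and stress gene, was at 118, 421 and 219 FPKM in CD36KO and 1342, 724 and 499 FPKM in the libraries labelled CD36CKO and missed the threshold (log2 difference -1.82, SE 0.49, adjusted p = 0.0548), and Nppb, at 176, 145 and 188 FPKM in CD36KO and 156, 106 and 61.97 FPKM in the libraries labelled CD36CKO, also did not pass (log2 difference 0.73, SE 0.30, adjusted p = 0.146). Both natriuretic peptides were lower in these 6 libraries than in WT, where Nppb was at 769, 645 and 989.5 FPKM. Of 18 atrial genes, 2 passed, both lower in CD36KO (11.1%, against 4.78% of all tested genes). They were the growth factor Bmp10 (log2 difference -1.12, SE 0.27, adjusted p = 0.0413) and the vasodilator peptide Adm (log2 difference -0.46, SE 0.09, adjusted p = 0.026). Both calls were lost without CD36KO 1, 2 or 3. With the mean atrial log2 level, which varied within both groups, as a covariate, Bmp10 was at -0.94 (adjusted p = 0.116) and Adm at -0.49 (adjusted p = 0.0665, limma), both short of the threshold, and the list median went from -0.36 to -0.10.

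In excitation and calcium handling, 3 of 31 calcium genes (9.68%) were higher in CD36KO and 2 (6.45%) in the libraries labelled CD36CKO. Over all tested genes these shares were 6.27% and 4.78%. The calcium pump inhibitor Pln was at 545, 598 and 597 FPKM in CD36KO and 418, 386 and 406 FPKM in the libraries labelled CD36CKO, higher in CD36KO (log2 difference 0.52, SE 0.09, adjusted p = 0.0183), and the histidine-rich calcium binder Hrc was also higher (0.45). The call for Pln was lost without CD36KO 2, CD36KO 3 or CD36CKO 2, and that for Hrc remained only without CD36CKO 3. Casq1, the calsequestrin of fast skeletal muscle, was at 4.16, 8.28 and 7.84 FPKM in CD36KO and 20.9, 17.2 and 41.6 FPKM in the libraries labelled CD36CKO, lower in CD36KO (log2 difference -1.77, SE 0.34, adjusted p = 0.0222). It is also a skeletal muscle marker, its highest value was that of CD36CKO 3, and the call was lost without CD36KO 1, 2 or 3 or CD36CKO 2. The inward rectifier channel gene Kcnj2 was at 3.43, 3.10 and 3.89 FPKM in CD36KO and 7.07, 6.24 and 6.22 FPKM in the libraries labelled CD36CKO (log2 difference -0.75, SE 0.10, adjusted p = 0.00994). In contrast Kcne1 and Hcn2 were higher in CD36KO (0.69 and 0.71, adjusted p = 0.045 and 0.0481). The call for Kcne1 remained only without CD36KO 2 and that for Hcn2 only without CD36CKO 3. Both were also lost under the same-sum scaling, with mitochondrially encoded and haemoglobin genes removed and with the atrial covariate. Of 27 cardiac transcription factors, 5 were lower in CD36KO (18.5%, against 4.78% of all tested genes) and none higher, at a median of -0.19. Hey2, a Notch target of ventricular muscle, was at 11.4, 11.1 and 9.43 FPKM in CD36KO and 18.5, 22.5 and 17.1 FPKM in the libraries labelled CD36CKO (log2 difference -0.80, SE 0.12, adjusted p = 0.0133). Nfatc4, Hand2 and Tbx2 had log2 differences of -0.64, -0.39 and -0.53, and Klf15 is described with the next list. Calls for Kcnj2, Hey2 and Klf15 were made without any 1 library, while the count of 5 fell to 2 without CD36KO 1, 2 or 3 or CD36CKO 2 and was 8 under the same-sum scaling.

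Glucocorticoid-responsive and metallothionein genes were the list with the largest share lower in CD36KO among those in the plot of list shares. Of 22 genes, 8 were higher in the libraries labelled CD36CKO (36.4%, against 4.78% of all tested genes) and 1 in CD36KO, at a median of -0.30. Klf15, a transcription factor of muscle metabolism, was at 4.45, 5.70 and 5.02 FPKM in CD36KO and 10.4, 13.8 and 9.97 FPKM in the libraries labelled CD36CKO (log2 difference -1.02, SE 0.14, adjusted p = 0.01). Ddit4, an inhibitor of mTORC1 that stress and glucocorticoids induce, was at 16.9, 17.3 and 18.3 FPKM in CD36KO and 31.5, 50.9 and 39.6 FPKM in the libraries labelled CD36CKO, without overlap (log2 difference -1.15, SE 0.16, adjusted p = 0.0109). Hif3a, of the hypoxia-inducible factor family, was at 2.21, 1.95 and 1.47 FPKM in CD36KO and 5.69, 11.997 and 7.89 FPKM in the libraries labelled CD36CKO and was lower in all CD36KO libraries (log2 difference -1.68, SE 0.23, adjusted p = 0.0104). The metallothionein Mt2 was at 3.74, 1.75 and 3.56 FPKM in CD36KO and 9.72, 7.40 and 8.85 FPKM in the libraries labelled CD36CKO (log2 difference -1.30, SE 0.21, adjusted p = 0.0152), a call lost without CD36CKO 2, whereas Mt1 at 123, 129.9 and 99.01 FPKM in CD36KO and 151, 134 and 158 FPKM in the libraries labelled CD36CKO did not pass (log2 difference -0.34, SE 0.13, adjusted p = 0.119) and Mt3 was higher in CD36KO (log2 difference 0.44, SE 0.08, adjusted p = 0.0208).

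The feedback regulator Tsc22d3, the kinase Sgk1 and the transcription factor Cebpd were also lower in CD36KO, with log2 differences of -0.51, -0.41 and -0.49. The chaperone Fkbp5, a standard glucocorticoid target, was at 2.46, 2.38 and 2.20 FPKM in CD36KO and 2.42, 4.29 and 2.17 FPKM in the libraries labelled CD36CKO and did not pass (log2 difference -0.21, SE 0.19, adjusted p = 0.493). WT varied widely for several of these genes, with Hif3a at 7.99, 6.42 and 20.7 FPKM and Klf15 at 8.77, 9.31 and 19.95 FPKM. The count of 8 fell to 5, 4 and 4 without CD36KO 1, 2 and 3, to 3 without CD36CKO 2 and to 1 without the Y-expressing libraries, and it was 6 without CD36CKO 3. The hypoxia list shares Hif3a and Ddit4 with this list. Of its 23 genes, 6 were higher in the libraries labelled CD36CKO (26.1%, against 4.78% of all tested genes), also Cited2, Adm, Ero1a and Bnip3. In the hypoxia list Higd1a was higher in CD36KO (log2 difference 0.52, SE 0.10, adjusted p = 0.0208). Its count of 6 was 3, 2, 2 and 2 without CD36KO 1, 2 and 3 and CD36CKO 2. Of 17 clock genes, Per2 passed, at 1.64, 1.61 and 1.68 FPKM in CD36KO and 3.32, 6.25 and 4.18 FPKM in the libraries labelled CD36CKO (log2 difference -1.05, SE 0.18, adjusted p = 0.0166), a call lost without CD36KO 2 or 3.

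Secreted signals and early response genes included the largest single difference among the called protein-coding genes higher in CD36KO. Apln (chrX:47114023-47123730 in the deposited table) encodes apelin, the peptide ligand of a receptor on endothelium and muscle, and was at 13.7, 14.6 and 18.1 FPKM in CD36KO and 2.48, 1.69 and 3.88 FPKM in the libraries labelled CD36CKO. The lowest CD36KO library held over 3 times the highest of the other group (log2 difference 2.20, SE 0.21, adjusted p = 0.00641), WT was at 2.75, 2.40 and 4.08 FPKM, and the call was made in all 21 alternative settings. No other gene of the 25 in its angiogenic list was higher in CD36KO at the threshold. Atf3, a stress-induced transcription factor, was at 8.87, 15.7 and 13.7 FPKM in CD36KO and 1.95, 2.12 and 3.39 FPKM in the libraries labelled CD36CKO (log2 difference 1.97, SE 0.22, adjusted p = 0.00791), also called in all 21 settings. With it 5 of 25 immediate early genes were higher in CD36KO (20%, against 6.27% of all tested genes), at a list median of 0.23. Among them were Csrnp1 (0.78, adjusted p = 0.0296) and Fosl2 (0.53, adjusted p = 0.0277). In the other direction 1 listed gene was called, Gadd45b (4%, against 4.78% of all tested genes). The count of 5 fell to 3 without CD36KO 1 or CD36CKO 3, to 2 without CD36CKO 1 or CD36CKO 2, and to 1, with Atf3 still called, without CD36KO 2 or 3. It was also 1 under the same-sum scaling and with mitochondrially encoded and haemoglobin genes removed.

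The matricellular YAP targets Ccn1 and Ccn2 were higher in CD36KO as well. Ccn1 was at 25.7, 29.3 and 21.3 FPKM in CD36KO and 14.1, 10.1 and 11.7 FPKM in the libraries labelled CD36CKO (log2 difference 1.03, SE 0.15, adjusted p = 0.0127), and Ccn2 was at 37.1, 65.5 and 56.3 FPKM in CD36KO and 23.4, 17.8 and 16.3 FPKM in the libraries labelled CD36CKO (log2 difference 1.40, SE 0.22, adjusted p = 0.0136), a call lost without CD36KO 3 or CD36CKO 2. In the growth factor list 4 of 40 passed in each direction (10% each, against 6.27% and 4.78% of all tested genes). The neuregulin co-receptor Erbb2 was lower in CD36KO, at 8.91, 8.38 and 8.68 FPKM in CD36KO and 11.5, 13.02 and 12.7 FPKM in the libraries labelled CD36CKO (log2 difference -0.47, SE 0.08, adjusted p = 0.0182). Stem cell factor Kitl was higher, at 13.5, 10.3 and 14.4 FPKM in CD36KO and 8.55, 8.27 and 6.95 FPKM in the libraries labelled CD36CKO (log2 difference 0.61, SE 0.14, adjusted p = 0.0325). The secreted proteins Fstl1 and Igfbp7 were also higher, with log2 differences of 0.39 and 0.64. The imprinted genes Zim1 and Peg3 were lower in CD36KO (-1.02 and -0.70, adjusted p = 0.0173 and 0.0261), and Dcn, also a fibroblast gene, was higher (log2 difference 0.53, SE 0.12, adjusted p = 0.0325). None of the calls for Erbb2, Kitl, Zim1, Peg3 and Dcn remained without CD36KO 3 or without CD36CKO 2.

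Among markers of the other cell types of the heart, calls went in both directions. Of endothelial markers 12% were higher and 4% lower in CD36KO, of fibroblast markers 10.5% and 10.5%, and of epicardial markers 7.14% and 14.3%. Over all tested genes these shares were 6.27% and 4.78%. Of 25 endothelial markers 3 were higher in CD36KO and 1 lower, at a median of 0.18: the tight junction gene Cldn5 was at 134, 105 and 147 FPKM in CD36KO and 69.97, 75.8 and 87.03 FPKM in the libraries labelled CD36CKO (log2 difference 0.72, SE 0.14, adjusted p = 0.0254), the transcription factor Erg had 0.49 and Sox17 had -0.81. Of 51 collagens and other matrix genes 6 were higher in CD36KO (11.8%) and 1 lower. Fibrillin, Fbn1, was at 14.8, 15.97 and 14.6 FPKM in CD36KO and 9.05, 10.7 and 9.46 FPKM in the libraries labelled CD36CKO (log2 difference 0.59, SE 0.09, adjusted p = 0.0133) and Dpt at 103, 82.2 and 75.5 FPKM in CD36KO and 49.99, 40.7 and 52.95 FPKM in the libraries labelled CD36CKO (log2 difference 0.84, SE 0.15, adjusted p = 0.0175), with fibronectin, Fn1, and the basement membrane collagen Col15a1 at log2 differences of 0.58 and 0.82. The count of 6 became 3, 0 and 2 without CD36KO 1, 2 and 3, and 2, 1 and 9 without CD36CKO 1, 2 and 3. Among 19 fibroblast markers, Dpt and Dcn were higher in CD36KO, and Tcf21 (log2 difference -0.80, SE 0.13, adjusted p = 0.0151) and Dpep1 (log2 difference -1.46, SE 0.24, adjusted p = 0.0159) were lower. Fibroblast markers reached 706, 711 and 645 in CD36KO and 566, 504 and 810.0 in those labelled CD36CKO, in FPKM, and overlapped. Epicardial markers were also split, with the claudin Cldn15 lower at 2.43, 3.08 and 2.49 FPKM in CD36KO and 5.87, 6.32 and 5.35 FPKM in the libraries labelled CD36CKO (log2 difference -0.90, SE 0.10, adjusted p = 0.00791), a call made in each of the 20 settings that tested it, the keratin Krt19 lower (-0.65) and Aldh1a2 higher.

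Immunoglobulin transcripts were low but separated the groups. Igkc, the kappa light chain, was at 3.41, 4.22 and 4.70 FPKM in CD36KO and 0.888, 0.240 and 1.46 FPKM in the libraries labelled CD36CKO (log2 difference 1.5, SE 0.24, adjusted p = 0.0144), and Ighm, the IgM heavy chain, was at 3.06, 1.94 and 3.85 FPKM in CD36KO and 0.927, 0.407 and 1.05 FPKM in the libraries labelled CD36CKO (log2 difference 1.13, SE 0.22, adjusted p = 0.0218). These were the only 2 of 21 lymphoid markers that passed the level filter, and WT held at most 0.652 FPKM of either. Both passed it through CD36KO, since their mean in the libraries labelled CD36CKO was below 1 FPKM. That both were higher in CD36KO is therefore tied to the filter. The call for Igkc was lost without CD36KO 2 or 3, and that for Ighm without CD36KO 1, CD36KO 3 or CD36CKO 2. Of 11 macrophage markers 1 passed, the receptor Cx3cr1, at 2.04, 2.02 and 1.90 FPKM in CD36KO and 0.871, 0.861 and 1.29 FPKM in the libraries labelled CD36CKO (log2 difference 0.58, SE 0.12, adjusted p = 0.0257), but 6 genes on the opposite strand and Csrnp1 on its own strand overlap it. In the reported limma fit no pericyte, lymphatic, valve, liver, cartilage or platelet marker passed. At an unadjusted p under 0.05 between 0 and 4 of each list passed. With voom 1 lymphatic marker passed. Other limma settings called up to 2 pericyte markers, as without CD36CKO 3, and up to 2 lymphatic markers, as under the same-sum scaling. Skeletal muscle markers had a median of -1.72 with CD36CKO 3 and 0.06 without it, and apart from Casq1 none passed. Single markers of other lists passed as well: the mast cell receptor Kit (0.54) and the smooth muscle integrin Itga8 (0.44) were higher in CD36KO, and the endocardial gene Cytl1 (-0.81) and the lung gene Ager (-0.68) were lower. Of 5 adipose markers 3 were lower in CD36KO, Lipe, Pparg and Plin4 (-0.35), of which Lipe and Pparg are also listed above, and 2 of the 12 adipose markers were at 0 in all 6 libraries.

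**Figure D5:**
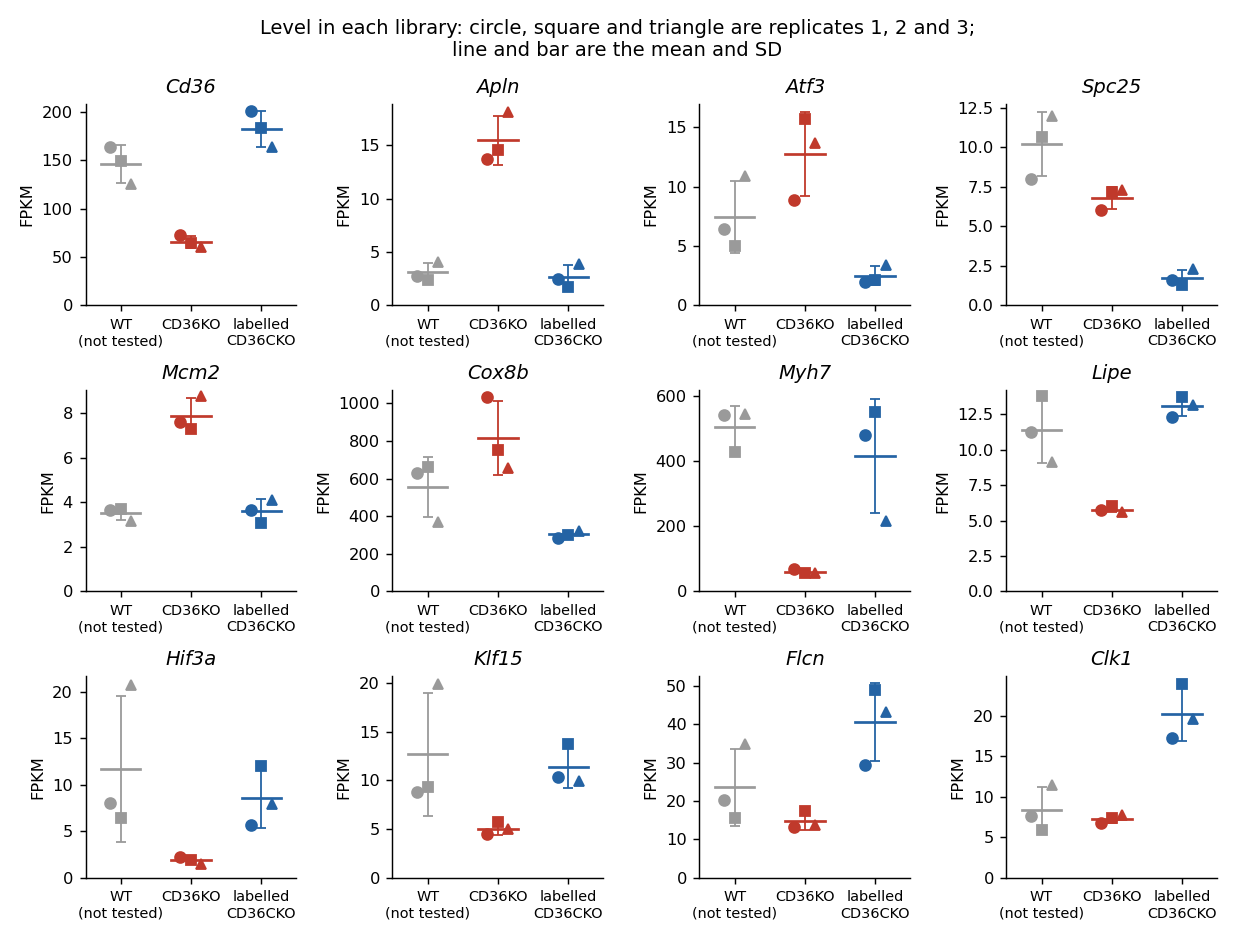
FPKM of 12 called genes in each WT, CD36KO and CD36CKO-labelled library (points, with the mean as a line and the SD as a bar, n = 3); WT was not tested. CD36KO and the libraries labelled CD36CKO do not overlap for any of the 12. Several of the 12, such as Apln, Atf3, Spc25 and Myh7, were chosen by a rule that required this. WT lies near the libraries labelled CD36CKO for Cd36, Apln, Mcm2, Myh7 and Lipe but near CD36KO for Clk1.

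Several of the largest differences lay in genes of no list. Higher in CD36KO were Tuba8, an alpha-tubulin isotype, at 6.31, 2.89 and 6.53 FPKM in CD36KO and 1.11, 0.528 and 1.80 FPKM in the libraries labelled CD36CKO (log2 difference 1.52, SE 0.30, adjusted p = 0.0235), the hydrolase gene Bphl, at 8.47, 10.9 and 9.24 FPKM in CD36KO and 1.91, 2.08 and 5.20 FPKM in the libraries labelled CD36CKO (log2 difference 1.46, SE 0.27, adjusted p = 0.0208), and Tcf19, at 15.5, 21.8 and 20.9 FPKM in CD36KO and 5.33, 4.83 and 10.6 FPKM in the libraries labelled CD36CKO (log2 difference 1.43, SE 0.26, adjusted p = 0.0199). Each of these 3 calls was lost without CD36KO 3 or CD36CKO 2 and without 1 further CD36KO library. Lower in CD36KO was Gipr, the receptor of an incretin hormone, at 1.36, 1.97 and 2.62 FPKM in CD36KO and 11.995, 12.8 and 7.70 FPKM in the libraries labelled CD36CKO, a difference seen in all 21 alternative settings (log2 difference -1.98, SE 0.21, adjusted p = 0.00784). The sulfotransferase Sult1a1 was at 7.51, 9.15 and 6.44 FPKM in CD36KO and 22.6, 25.9 and 17.1 FPKM in the libraries labelled CD36CKO (log2 difference -1.39, SE 0.17, adjusted p = 0.00925). Flcn, folliculin, a regulator of nutrient signalling at the lysosome, was at 13.2, 17.5 and 13.8 FPKM in CD36KO and 29.3, 48.99 and 43.1 FPKM in the libraries labelled CD36CKO (log2 difference -1.37, SE 0.19, adjusted p = 0.0112).

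Clk1, a kinase of splicing factors, was at 6.70, 7.41 and 7.81 FPKM in CD36KO and 17.3, 23.98 and 19.6 FPKM in the libraries labelled CD36CKO (log2 difference -1.35, SE 0.13, adjusted p = 0.00641), with WT at 7.63, 5.86 and 11.5 FPKM, and its call was made in all 21 settings. The death receptor gene Tnfrsf25 was at 0.545, 0.704 and 0.638 FPKM in CD36KO and 2.24, 4.04 and 3.39 FPKM in the libraries labelled CD36CKO (log2 difference -1.35, SE 0.17, adjusted p = 0.00925). For both of these genes WT lay below the libraries labelled CD36CKO. The mean of Tnfrsf25 in CD36KO was below 1 FPKM, so it passed the level filter through the libraries labelled CD36CKO, and its direction is tied to the filter. The kelch-like gene Klhl38 was at 1.45, 2.35 and 1.39 FPKM in CD36KO and 4.21, 6.32 and 7.19 FPKM in the libraries labelled CD36CKO (log2 difference -1.33, SE 0.20, adjusted p = 0.0128). That call was lost without CD36CKO 2. Among long noncoding RNA genes, 34 of 563 were higher in CD36KO and 33 lower. The largest differences higher in CD36KO were those of ENSMUSG00000120992 (1.77), Banf2os (1.46) and ENSMUSG00000120364 (1.39), and the largest lower were those of Erdr1 (-2.23), 5430431A17Rik (-1.81) and ENSMUSG00000120880 (-1.53). The transcript 5430431A17Rik was at 29.5, 28.7 and 22.4 FPKM in CD36KO and 73.2, 100.9 and 119.7 FPKM in the libraries labelled CD36CKO (log2 difference -1.81, SE 0.19, adjusted p = 0.00784), and Banf2os lies opposite Banf2, so their reads cannot be told apart here.

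The remaining lists held few calls each, with shares on both sides of the 6.27% and 4.78% of all tested genes. Of 38 glycolysis genes 1 was higher in CD36KO, the phosphofructokinase subunit Pfkl (log2 difference 0.43, SE 0.08, adjusted p = 0.0188), and of 32 TCA cycle and ketone genes 1 was, Me2 (log2 difference 0.40, SE 0.10, adjusted p = 0.048). Their medians were 0.02 and 0.07, and both were below 0 under the same-sum scaling. None of 33 heat shock and chaperone genes passed in the reported limma fit, and 2 did at an unadjusted p under 0.05. The count was also 2 with voom, under the same-sum scaling, with mitochondrially encoded and haemoglobin genes removed and with the replicate block. Cholesterol genes had 1 of 23 higher in CD36KO, Pmvk (0.43), and 2 lower, Tm7sf2 (-0.45) and Insig1 (-0.53). Lipid synthesis genes had 1 of 21 in each direction, Agpat2 higher in CD36KO (0.39) and Acacb lower (-0.47). Interferon-stimulated genes had 3 and 2 of 33, with B2m (0.47) and Lgals3bp (0.52) higher, Ifi27l2a higher at 12.8, 19.9 and 17.6 FPKM in CD36KO and 8.47, 5.71 and 9.95 FPKM in the libraries labelled CD36CKO (log2 difference 0.98, SE 0.21, adjusted p = 0.0303) and Irf9 lower (log2 difference -0.50, SE 0.10, adjusted p = 0.0255). Serine, one-carbon and ATF4 genes had 1 and 1 of 33, Mthfd2 higher in CD36KO (0.53) and Shmt2 lower (-0.35). Of 66 tested genes within 10 Mb of Cd36, 3 were higher in CD36KO and 2 lower besides Cd36 itself, at a median of 0.00, with Tomm7 (0.59) and Dbf4 (0.52) among those higher and Fastk (-0.44) and Dmtf1 (-0.42) lower.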

How the data were processed

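Whole-heart RNA of 9 libraries was measured by RNA sequencing. Per the labels' protocols, poly-A RNA was fragmented, primed with random hexamers and made into directional libraries with dUTP. The submitters' processing notes name CASAVA, HISAT2, HISAT and TopHat2, and the counter, its strand setting and the genome build are not stated. The deposited values are FPKM computed by the authors per the file headers. Whole read counts were recovered from the low values (100% whole within 0.05) and gave depths of 14408631 to 20725356 reads in the 6 libraries compared, where 3 reads on a gene of 1 kb equal 0.128 to 0.192 FPKM (counting error only).

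Genes with a mean of at least 1 FPKM over these 6 libraries were tested on log2(FPKM + 1) with limma 3.58.1 in R 4.3.3 (empirical Bayes, 4 residual and 3.63 prior degrees of freedom), with Benjamini-Hochberg adjustment over all 12175 genes and a threshold of 0.05. A fold on this scale understates the change of low genes. The summed levels of lists were compared with an exact permutation test. Libraries were grouped by the labels alone. The 58 gene lists and the comparison itself were chosen with earlier results of these data known. Genes were named by rule: 12 protein-coding genes with the largest called differences and no overlap between groups, and 3 long noncoding genes likewise, in each direction, up to 4 called genes per list by smallest p, and 6 genes of the study text, with exceptions said in the text. Several further list members are given with values after these were seen. Alternatives covered pseudocount, level filter, gene classes, scaling, voom on recovered reads, library weights, covariates, replicate block and leaving out each library. The procedure was checked on simulated data. Promoter sequence came from RefSeq (GRCm38.p6), whose coordinates differ from those of the deposited table and were kept apart from them. A few genes that the rule selects are not reported here.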

Additional observations from a re-analysis of the deposited data

How the results depend on the processing

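The count of 1345 called genes became 94 with no filter on low values, when 29152 genes were tested, 307 without the Y-expressing libraries, 349 with the mean atrial log2 level as a covariate and 230 to 1431 when 1 library was left out. Those higher in CD36KO (763) became 49, 228 and 189 in the first 3 of these settings, 395 with the same FPKM sum, 456 without mitochondrially encoded and haemoglobin genes and 149 to 665 with 1 library left out. Those higher in the libraries labelled CD36CKO (582) became 45, 79 and 160, then 1243 and 1051, 1142 with voom, and 81 to 766 with 1 library left out. Fewer libraries or more tested genes enter some of these fits by construction, and for the others the cause was not tested. Of 134 named calls, 46 were made without any 1 of the libraries, 18 were made in every alternative setting that tested the gene (10 of them in all 21 settings, the other 8 in 19 or 20), and none reversed. The calls for Agpat2, Me2, Plin4 and Shmt2 were lost whichever library was left out. A fit with the replicate number as a block called 1326 genes. Deviations of same-numbered libraries correlated at 0.097, 0.0075 and 0.141, and those of unlike-numbered libraries at -0.138 to 0.0721. With 3 libraries per group these values cannot show whether the numbers pair the libraries. Depth limits genes near 1 FPKM, where few reads stand behind each value.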
